A study of Mus musculus with 12 samples.

Results

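The genes described here are 104 enzymes of drug and aldehyde metabolism, out of 10949 genes measured in mouse ovary. Genes were matched by symbol, and the families were chosen with earlier results of these data known. The set holds 51 cytochrome P450 genes (Cyp), 7 UDP-glucuronosyltransferases (Ugt), 18 glutathione S-transferases (Gst) and 10 sulfotransferases (Sult). It also holds 11 aldehyde dehydrogenases (Aldh), 5 carboxylesterases (Ces) and 2 epoxide hydrolases (Ephx). The Cyp genes of steroid and cholesterol synthesis were left out, which removed Cyp17a1, Cyp21a1 and Cyp51 from the measured genes. The rule also takes in a few genes with other roles, such as Aldh18a1, an enzyme of proline synthesis, and the pseudogene Cyp4f41-ps. Each gene was represented by its probe set with the highest mean over the 12 arrays, and 18 of the 104 had more than 1 probe set. A further 19 genes that match the rule were measured only by probe sets shared between several genes, the Ugt1a family among them, and were not counted.

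The ovaries came from 12 female mice of 23 weeks, collected at diestrus, the phase of the estrous cycle without an ovulatory surge, as judged by vaginal smear. The 6 control mice were Pgrcre/+ and had no tumor. The other 6 were Pgrcre/+PgrBLsL/+, with 3 ovaries at tumor stage I and 3 at stage II. All 12 mice therefore carried Pgrcre, which places Cre recombinase under the progesterone receptor gene, so Cre acts only where that gene is or has been active. The allele and the tumor always came together in these mice, so their effects cannot be told apart in a comparison with controls. RNA was taken from whole ovary. In such bulk samples, a change in the number of cells of a type and a change in RNA per cell cannot be told apart. The labels call the samples biological replicates of a group but name no strain, litter or batch.

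Cells clear drugs, pollutants and reactive by-products of lipid oxidation in steps. P450 enzymes, fed with electrons by cytochrome P450 reductase and cytochrome b5, add oxygen to a substrate, and aldehyde dehydrogenases, carboxylesterases and epoxide hydrolases oxidise or split reactive groups. Ugt, Gst and Sult enzymes then attach glucuronic acid, glutathione or sulfate, and ABC transporters export the conjugates. Liver holds most of these enzymes at high level. The ovary is known for a narrower set, including Cyp1b1, which hydroxylates estradiol, and the Aldh1a enzymes, which make retinoic acid.

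Pgr, the gene that the PgrBLsL allele is named for, had log2 values from 3.74 to 4.60 in controls, from 9.05 to 9.28 in stage I and from 9.78 to 10.09 in stage II, so the arrays separated as their genotype labels say. Array medians lay between 7.09 and 7.15, array correlations over all probe sets ran from 0.967 to 0.9969, and 0 pairs of arrays held identical values. All values below are the deposited log2 values, so a difference of 1 is a 2-fold difference. Differences were tested with limma over all 10949 genes, and a gene is called where its Benjamini-Hochberg adjusted p is under 0.05. SE is the standard error of the fitted difference. Values of different genes come from different probes and are not compared with each other.

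The promoter windows of the 4 genes with the largest increases, Ugt2b34, Gsta3, Aldh1a7 and Sult1a1, and of Cyp2e1, the gene with the largest decrease, are shown because these genes had the largest changes among the enzymes. Each is the 250 bases before the transcription start in RefSeq's table of build GRCm38.p6, read 5′ to 3′ on the strand of the gene, and capitals mark the motifs named in the next paragraph. The windows are Ugt2b34 at chr5:86906938-86907187 (minus strand), Gsta3 at chr1:21240335-21240584 (plus strand), Aldh1a7 at chr19:20727557-20727806 (minus strand), Sult1a1 at chr7:126676419-126676668 (minus strand) and Cyp2e1 at chr7:140763569-140763818 (plus strand).
Ugt2b34: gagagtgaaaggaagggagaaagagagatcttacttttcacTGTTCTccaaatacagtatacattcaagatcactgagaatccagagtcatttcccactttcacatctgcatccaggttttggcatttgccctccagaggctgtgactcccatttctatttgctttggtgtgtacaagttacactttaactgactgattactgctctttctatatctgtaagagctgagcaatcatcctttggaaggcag
Gsta3: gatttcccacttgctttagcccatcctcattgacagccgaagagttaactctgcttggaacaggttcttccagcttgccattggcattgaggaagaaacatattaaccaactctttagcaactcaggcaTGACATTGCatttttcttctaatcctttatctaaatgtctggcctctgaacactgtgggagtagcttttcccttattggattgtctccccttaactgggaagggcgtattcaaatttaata
Aldh1a7: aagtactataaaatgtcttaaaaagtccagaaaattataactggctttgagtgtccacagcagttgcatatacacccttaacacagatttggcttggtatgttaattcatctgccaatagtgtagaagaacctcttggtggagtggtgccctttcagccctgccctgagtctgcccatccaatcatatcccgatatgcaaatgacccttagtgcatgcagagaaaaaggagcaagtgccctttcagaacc
Sult1a1: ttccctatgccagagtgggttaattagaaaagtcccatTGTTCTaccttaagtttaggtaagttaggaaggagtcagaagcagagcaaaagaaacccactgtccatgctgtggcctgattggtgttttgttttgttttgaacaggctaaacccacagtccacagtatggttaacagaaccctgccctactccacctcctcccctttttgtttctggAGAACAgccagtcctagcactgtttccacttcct
Cyp2e1: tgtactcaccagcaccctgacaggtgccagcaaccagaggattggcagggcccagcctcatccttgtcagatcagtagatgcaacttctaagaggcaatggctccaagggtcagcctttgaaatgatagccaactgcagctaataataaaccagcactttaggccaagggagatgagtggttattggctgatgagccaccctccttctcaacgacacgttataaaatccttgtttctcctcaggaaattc

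Sets of letters were searched on both strands: TGACNNNGC, the core of the antioxidant response element bound by NRF2, GCGTG, the core bound by the dioxin receptor with its partner ARNT, and TGTTCT, the hexamer of steroid receptor sites, the progesterone receptor's included. Gsta3 held TGACATTGC at 121 to 113 bases before the start. Sult1a1 held TGTTCT at 212 to 207 bases before the start, and again on the opposite strand at 34 to 29, where the window reads AGAACA. Ugt2b34 held TGTTCT at 209 to 204 bases before the start. None of the 3 sets of letters stood in the windows of Aldh1a7 and Cyp2e1.

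RefSeq windows were matched to 83 of the 104 genes, with 101 windows in all. TGACNNNGC stood in 5.94% of these windows against 10.2% of the 32851 windows of all genes, GCGTG in 24.8% against 28.2%, and TGTTCT in 18.8% against 16.1%. Of the 11 genes called higher in stage II that had windows (14 windows), TGACNNNGC stood in 1 (Gsta3), GCGTG in 1 (Cyp4v3) and TGTTCT in 4 windows, those of Gstm6, Sult1a1 and Ugt2b34. Of the 7 genes called lower (8 windows), TGACNNNGC stood in 1 (Gstm5), GCGTG in 3 windows, those of Aldh18a1, Cyp1b1 and Gstm5, and TGTTCT in 1 (Cyp4b1). These are matches of letters, and binding was not measured.

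Most of the enzymes gave low values in the ovary. By mean over all arrays, 55 of the 104 fell in the lowest 25% of all genes, at 5.27 or below, 11 in the highest 25%, above 9.14, and 38 in between. The low ones included 16 of the 18 measured genes of the Cyp2a, Cyp2b, Cyp2c and Cyp3a subfamilies, which hold many of the drug oxidases of liver. All 5 Cyp3a genes and all 4 Ugt2b genes lay there. No background estimate was used here, so such values may lie at the limit of detection, and a fold from them is a ratio of deposited values. The 11 highest included Aldh1a1, Gstm1, Gstm2, Cyp1b1, Ephx1, Gsta4 and Gsto1.

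Stage II ovaries differed from controls in 21 of the 104 enzymes, which is 20.2%, against 21.0% of all genes tested. The 21 split into 14 higher (13.5%, against 9.81% of all genes) and 7 lower (6.73%, against 11.2%). The increases included large ones: 9 genes were called and at least 2-fold higher (8.65%, against 2.23% of all genes), and 1 was called and at least 2-fold lower (0.962%, against 0.274%). The 9 were Ugt2b34, Gsta3, Aldh1a7, Sult1a1, Ugt2b5, Cyp27a1, Cyp39a1, Gsta4 and Gsto1, and the 1 was Cyp2e1. The rest of the set moved little, with 72 of 104 (69.2%) within 0.25 log2 units of the controls against 73.7% of all genes. The median change of the 104 was 0.07, against -0.01 over all genes. By level, 2 of the 55 enzymes in the lowest 25% were called (3.64%, against 5.08% of all genes at that level), 12 of the 38 in between (31.6%, against 23.4%) and 7 of the 11 highest (63.6%, against 32.2%). Level is the mean over all 12 arrays, stage II included, so a change in stage II can itself move a gene between these classes. Aldh1a7, with a mean of 7.95 in controls and 11.71 in stage II, counted among the 11 highest at 9.23.

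**Figure D1:**
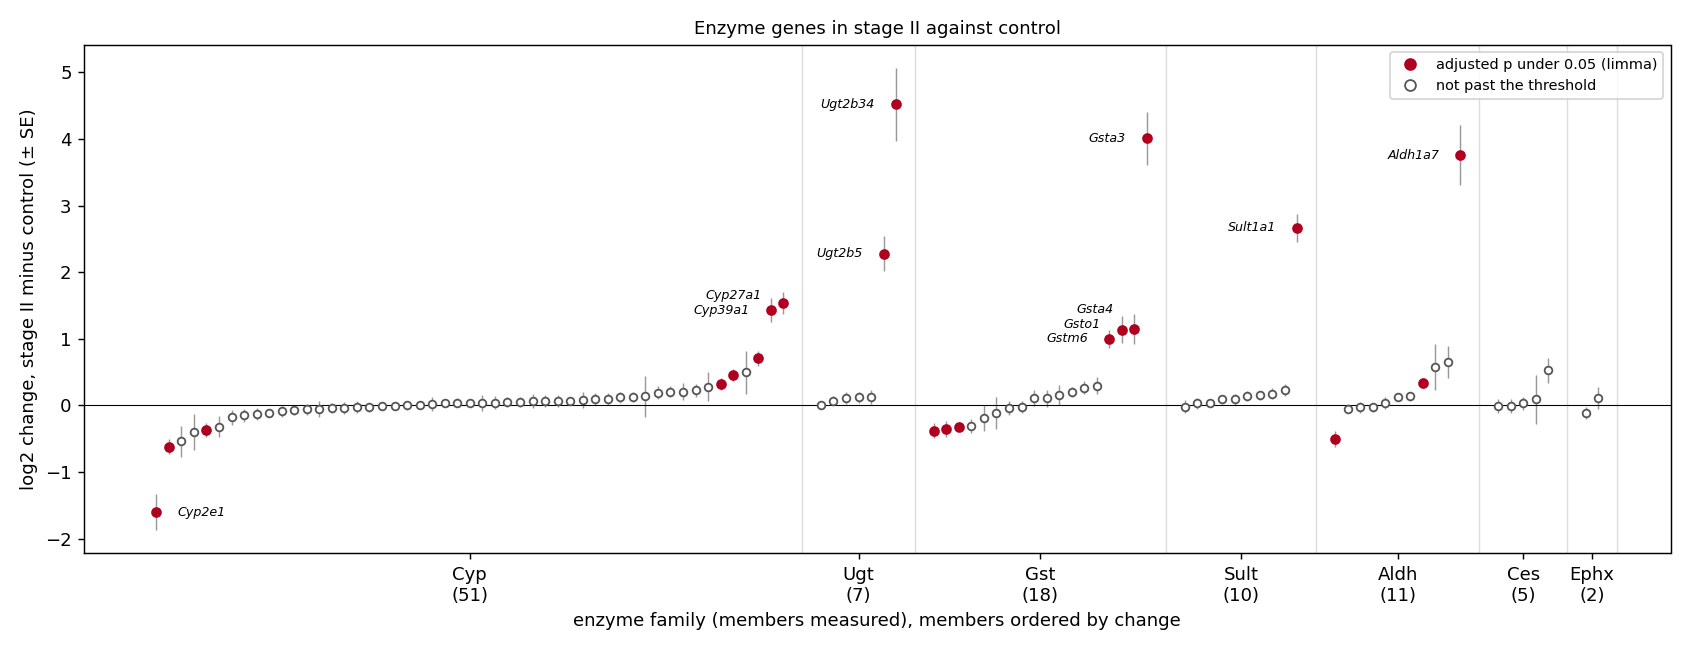
Each point is 1 of the 104 enzyme genes, grouped by family along the x axis and ordered by its log2 change in stage II against control on the y axis, with the SE as a bar; filled points passed the adjusted p threshold of 0.05. Ugt2b34 (4.52), Gsta3 (4.01), Aldh1a7 (3.76), Sult1a1 (2.67) and Ugt2b5 (2.28) stand highest, Cyp2e1 (-1.60) stands lowest, and most open points lie near 0.

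Among the P450 genes, 5 rose and 3 fell in stage II out of 51 (15.7% called, against 21.0% of all genes). Cyp27a1, the mitochondrial sterol hydroxylase of bile acid synthesis, had control values from 8.10 through a median of 8.35 to 8.53, stage I values of 9.39, 8.56 and 8.52, and stage II values of 9.72, 9.87 and 9.96. All 3 stage II ovaries lay above all controls, and of the stage I ovaries only replicate 1 came near them. Cyp27a1 rose 2.9-fold in stage II (log2 1.54 ± 0.17 SE, adjusted p = 6.4e-05). Cyp39a1, an oxysterol hydroxylase of the same pathway, ran from 6.31 (median 6.69) to 6.88 in controls, 7.36, 6.81 and 6.58 in stage I, and 8.01, 7.86 and 8.47 in stage II. The stage II values were again above every control and every stage I value, and the increase was 2.7-fold (log2 1.43 ± 0.18 SE, adjusted p = 0.00018). The other 3 measured genes of sterol and bile acid hydroxylation, Cyp7a1, Cyp7b1 and Cyp46a1, were not called, with log2 changes from -0.32 to 0.02.

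Of the 42 genes in Cyp families 1 to 4, where the drug-oxidising enzymes belong, 3 rose and 3 fell. Over all genes 9.81% were called higher and 11.2% lower. Of the 42 genes, 27 had a mean over all arrays of 5.27 or below. Cyp2d22, the mouse gene usually set beside human CYP2D6, ran from 8.21 (median 8.47) to 8.74 in controls, 8.99, 8.69 and 8.69 in stage I, and 9.34, 9.11 and 9.09 in stage II. Its stage II values did not overlap with either other group, and it rose 1.63-fold (log2 0.71 ± 0.11 SE, adjusted p = 0.0011). A second probe set of Cyp2d22 gave 0.97. Cyp2c70, which makes muricholic acids in mouse liver, rose 1.37-fold (log2 0.46 ± 0.09 SE, adjusted p = 0.0032), from 5.57 ± 0.10 (SD, n = 6) in controls to 6.12, 5.90 and 6.05 in stage II. Cyp4v3, a fatty acid hydroxylase, rose 1.25-fold (log2 0.33, adjusted p = 0.023), but was not called once stage II replicate 2 was left out (adjusted p = 0.1).

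Cyp2e1, which oxidises ethanol, acetone and many small solvents, had the largest decrease of the 104. Control values ran from 6.62 in replicate 1 through a median of 7.65 to 8.34, stage I values were 7.27, 7.47 and 7.78, and stage II values were 5.87, 6.13 and 6.02. Every stage II ovary lay below every control and every stage I ovary. Cyp2e1 fell 3.04-fold in stage II (log2 -1.60 ± 0.27 SE, adjusted p = 0.0017), and the stage I difference was -0.10 ± 0.27 SE (adjusted p = 0.99).

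Cyp2e1 is also abundant in adipocytes, and the adipocyte hormone gene Adipoq showed the same order of groups. Adipoq values were 6.29 in control replicate 1, up to 9.88 in the other controls, 7.89, 8.16 and 9.31 in stage I, and 4.85, 6.17 and 4.88 in stage II (log2 -3.34 ± 0.66 SE, adjusted p = 0.0042). Of the 6 measured adipocyte markers, 1 fell (Adipoq) and 1 rose (Fabp4, log2 2.47, adjusted p = 0.0026). Over all genes 11.2% fell and 9.81% rose. The mean of the list ran from 7.67 to 8.58 in controls, from 7.84 to 8.34 in stage I and from 7.99 to 8.11 in stage II. The part of adipose tissue in the Cyp2e1 difference was not tested.

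Cyp1b1 had control values from 11.61 through 11.78 to 11.94, stage I values of 11.63, 11.54 and 11.38, and stage II values of 11.39, 11.24 and 10.83. Stage II did not overlap with controls, while stage I overlapped with both. Cyp1b1 fell 1.54-fold in stage II (log2 -0.62 ± 0.11 SE, adjusted p = 0.0023), and a second probe set gave -0.50. Cyp4b1, which hydroxylates fatty acids and activates aromatic amines, fell 1.29-fold (log2 -0.37, adjusted p = 0.028), but its call ended without control replicate 3 or 5 or stage II replicate 1 or 3, at an adjusted p of up to 0.16. The uncalled genes of the Cyp2a, Cyp2b, Cyp2c and Cyp3a subfamilies ranged from -0.06 to 0.28 in stage II. The next largest differences among uncalled Cyp genes were those of Cyp2s1 (log2 -0.54 ± 0.23 SE, adjusted p = 0.12) and Cyp26a1, a retinoic acid hydroxylase (0.50 ± 0.32 SE, adjusted p = 0.31).

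Of the 7 Ugt genes, 2 rose (28.6% called, against 21.0% of all genes), both of the Ugt2b cluster on chromosome 5. Ugt2b34 had the largest change of all 104 genes. Its control values lay between 3.57 and 3.92 with a median of 3.58, its stage I values were 5.71, 4.09 and 4.21, and its stage II values were 7.13, 7.31 and 10.11. No group overlapped with another, and the stage II ovaries themselves differed widely (SD 1.67). Ugt2b34 rose 22.9-fold in stage II (log2 4.52 ± 0.55 SE, adjusted p = 0.00014), and 11.7-fold without stage II replicate 3 (adjusted p = 3.8e-05). A second probe set gave a log2 change of 3.82.

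Ugt2b5 values ran from 3.15 (median 3.37) to 3.51 in controls, were 3.71, 3.36 and 3.39 in stage I, and 4.94, 5.33 and 6.59 in stage II. Only the stage II ovaries stood clear of the controls, by 4.85-fold (log2 2.28 ± 0.26 SE, adjusted p = 9.2e-05). The other 2 genes of the cluster, Ugt2b1 and Ugt2b38, changed by 0.07 and 0.13 and were not called. Both called genes lay in the lowest 25% of all genes by mean, and were the 2 called genes of the 55 there. Ugt3a1, next after Ugt2b34 in mean value within the family, was at 4.67 ± 0.05 (SD, n = 6) in controls and 4.68 ± 0.02 (n = 3) in stage II.

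The glutathione S-transferases gave 4 increases and 3 decreases out of 18 (38.9% called, against 21.0% of all genes). The Gsta class, which reduces lipid hydroperoxides and conjugates hydroxyalkenals, rose in 2 of 3 genes, where 9.81% of all genes rose. Gsta3 values ran from 6.67 through a median of 7.29 to 7.79 in controls, were 10.00, 8.04 and 8.30 in stage I, and 10.97, 10.94 and 11.90 in stage II. The 3 groups did not overlap, and Gsta3 rose 16.1-fold in stage II (log2 4.01 ± 0.40 SE, adjusted p = 2.4e-05). A second probe set gave a log2 change of 3.50.

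Gsta4, which acts on the lipid aldehyde hydroxynonenal, ran from 9.87 (median 10.41) to 10.70 in controls, 10.94, 10.52 and 10.65 in stage I, and 11.18, 11.14 and 12.07 in stage II. Stage II lay above all other ovaries, by 2.22-fold against controls (log2 1.15 ± 0.22 SE, adjusted p = 0.0038). Gsta2 stayed uncalled, with a log2 change of -0.19 (adjusted p = 0.54). Gsta3 lies on chromosome 1, and Gsta2 and Gsta4 on chromosome 9.

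Gsto1, an omega-class enzyme that reduces dehydroascorbate and arsenic compounds, ran from 10.31 (median 10.43) to 10.52 in controls, 10.75, 10.69 and 10.29 in stage I, and 11.16, 11.28 and 12.27 in stage II. Only stage II stood apart from the controls, by 2.2-fold (log2 1.14 ± 0.20 SE, adjusted p = 0.0018). The mu class has 7 measured genes, all on chromosome 3, of which Gstm6 rose and Gstm5 fell. Over all genes 9.81% rose and 11.2% fell. Gstm6 ran from 6.96 (median 7.09) to 7.32 in controls, 7.73, 7.38 and 7.23 in stage I, and 7.98, 7.85 and 8.45 in stage II (log2 1.00 ± 0.14 SE, adjusted p = 0.00033), with stage II above every other ovary. The 5 other Gstm genes had log2 changes from 0.11 to 0.30 and were not called, among them Gstm1 (0.30, adjusted p = 0.13) and Gstm2 (0.11, adjusted p = 0.59). Genes of this cluster are close in sequence, and how far their probes read each other's transcripts was not tested.

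The decreases among Gst genes were small. Gstz1, the maleylacetoacetate isomerase of tyrosine breakdown, fell 1.25-fold (log2 -0.32 ± 0.07 SE, adjusted p = 0.0065), from between 8.25 and 8.49 in controls to 8.11, 7.98 and 7.96 in stage II, without overlap. Gstt1, a theta-class enzyme, fell 1.3-fold (log2 -0.38 ± 0.11 SE, adjusted p = 0.027), with stage II values of 9.11, 9.05 and 8.58 against 9.10 to 9.42 in controls. Its call ended without control replicate 3 or stage II replicate 3, at an adjusted p of up to 0.14. Gstm5 fell by 0.36 (adjusted p = 0.048), a call that ended without any 1 of 8 arrays, at up to 0.27 without stage II replicate 3.

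Of the 10 sulfotransferases, Sult1a1 rose and 9 were not called (10% called, against 21.0% of all genes). Sult1a1, which sulfates phenols and small aromatic drugs, ran from 7.41 (median 7.53) to 7.65 in controls, was at 9.26, 8.25 and 8.20 in stage I, and at 10.03, 9.95 and 10.60 in stage II. The 3 groups did not overlap, and the control values lay close together (SD 0.08). Sult1a1 rose 6.35-fold in stage II (log2 2.67 ± 0.21 SE, adjusted p = 3.5e-06), the smallest adjusted p among the 104. The other 4 Sult1 genes had log2 changes from 0.03 to 0.23, the highest being Sult1e1, the estrogen sulfotransferase (adjusted p = 0.088). Sult4a1, the family's second in mean value, had a log2 change of 0.14 (adjusted p = 0.27).

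**Figure D2:**
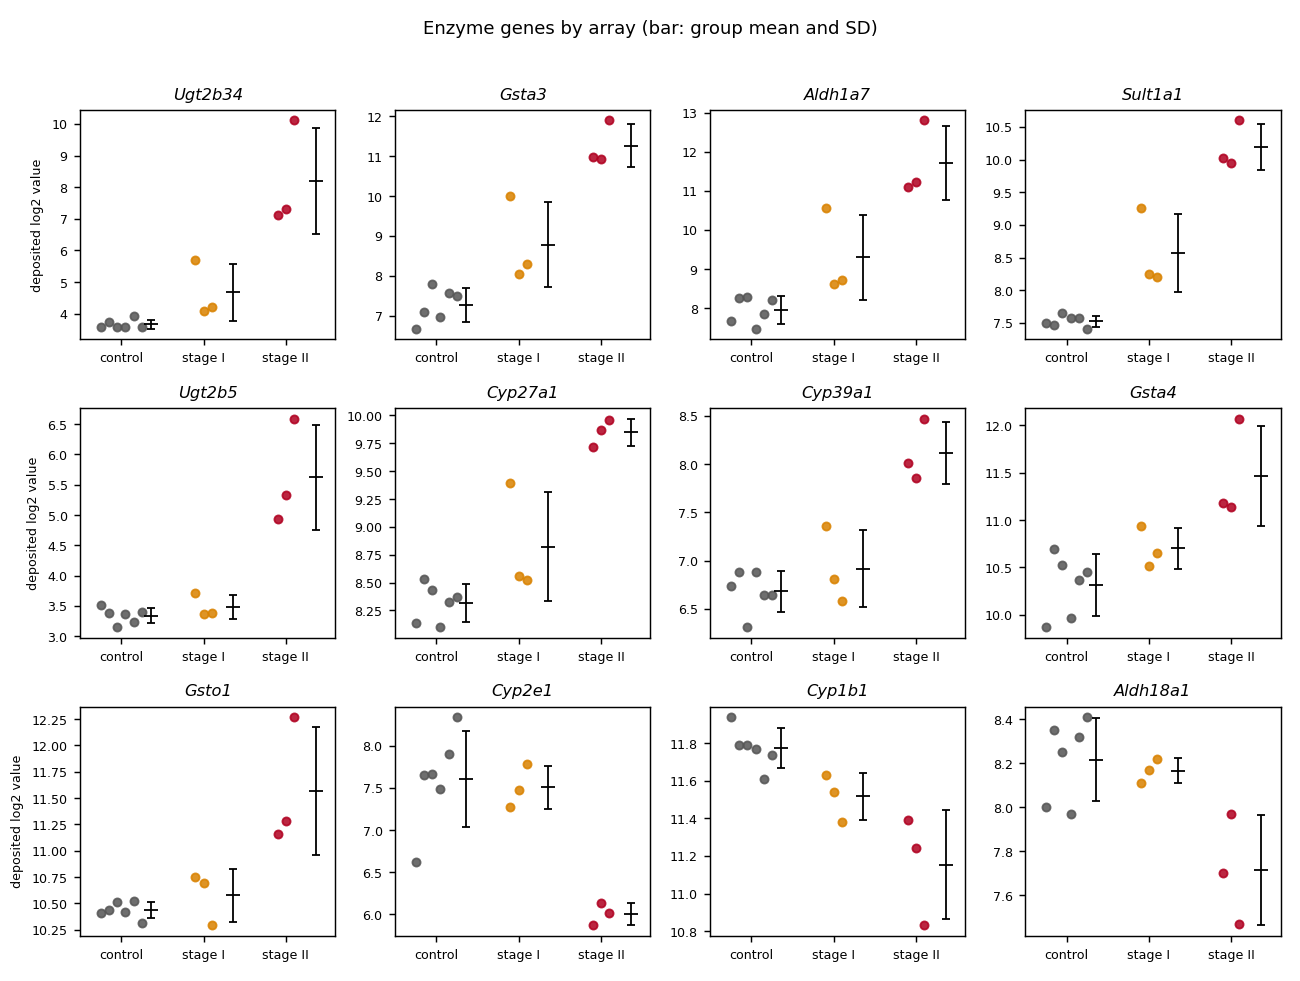
Deposited log2 values of 12 enzyme genes (y axis, a separate scale in each panel) in 6 control, 3 stage I and 3 stage II ovaries, with 1 point per array and the group mean ± SD as a bar. In Ugt2b34, Gsta3, Aldh1a7 and Sult1a1 the stage I points lie between controls and stage II with replicate 1 the highest, while in Cyp2e1 only the stage II points, from 5.87 to 6.13, leave the control range.

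Of the 11 aldehyde dehydrogenases, 2 rose and 1 fell (27.3% called, against 21.0% of all genes). Aldh1a7, a close relative of Aldh1a1 that oxidises other aldehydes in the mouse but hardly retinal, ran from 7.47 through a median of 8.02 to 8.29 in controls, was at 10.56, 8.62 and 8.71 in stage I, and at 11.09, 11.23 and 12.80 in stage II. No group overlapped with another, and Aldh1a7 rose 13.5-fold in stage II (log2 3.76 ± 0.45 SE, adjusted p = 0.00011). Aldh1a1, a retinal dehydrogenase beside Aldh1a7 on chromosome 19, ran from 13.48 (median 13.67) to 13.84 in controls, 14.02, 13.84 and 13.81 in stage I, and 13.98, 14.04 and 14.04 in stage II. It rose 1.26-fold (log2 0.34 ± 0.08 SE, adjusted p = 0.01), and its stage II values lay close to the highest value in the table, 14.44. These 2 genes are alike in sequence, and how far their probe sets read each other's transcripts was not tested.

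Aldh1a2, the main retinal dehydrogenase of the embryo, had stage II values of 9.70, 10.13 and 9.18 against 8.50 to 9.37 in controls (log2 0.65 ± 0.24 SE, adjusted p = 0.079). Aldh1a3, a further retinal dehydrogenase, had a log2 change of 0.03 (adjusted p = 0.86). Aldh18a1 fell 1.42-fold, from between 7.97 and 8.41 in controls to 7.70, 7.97 and 7.47 in stage II (log2 -0.50 ± 0.12 SE, adjusted p = 0.012). With stage II replicate 3 left out, Aldh18a1 was not called (adjusted p = 0.08).

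Neither the 5 carboxylesterases nor the 2 epoxide hydrolases gave a call. Ces2e, a liver and gut carboxylesterase in the mouse, had stage II values of 5.51, 5.09 and 5.25 against 4.49 to 5.41 in controls (log2 0.53 ± 0.19 SE, adjusted p = 0.065). Ces2g, the family's highest in mean value, had a log2 change of 0.03 (adjusted p = 0.87). Ephx1, the microsomal epoxide hydrolase, ran from 10.46 to 11.29 in controls and was at 10.72, 11.09 and 11.09 in stage II (log2 0.11 ± 0.17 SE, adjusted p = 0.7). Ephx3 had a log2 change of -0.11 (adjusted p = 0.42).

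**Figure D3:**
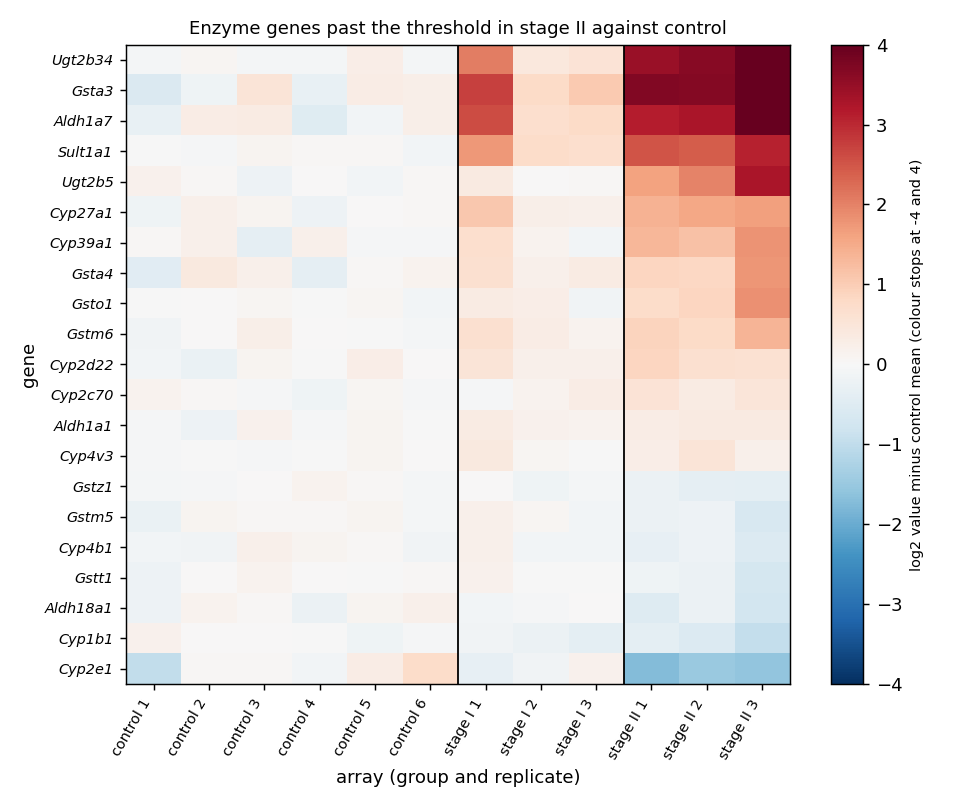
Log2 value minus the control mean (colour, stopping at -4 and 4) of the 21 enzyme genes called in stage II against control, with genes as rows and the 12 arrays as columns. The upper rows darken from stage I to stage II, most of all in stage I replicate 1 and stage II replicate 3, and Cyp2e1 in the lowest row is blue in all 3 stage II ovaries and in control replicate 1.

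In stage I ovaries 0 of the 104 enzymes were called against control, beside 0.192% of all genes (21 genes, all higher). At an unadjusted p under 0.05, 12 of the 104 were higher (11.5%, against 3.78% of all genes) and 2 were lower, Cyp1b1 and Cyp4a31 (1.92%, against 2.59%). The 12 were Aldh1a1, Aldh1a7, Aldh3a1, Cyp27a1, Cyp2d22, Ephx1, Gsta3, Gstm1, Gstm2, Gstm6, Sult1a1 and Ugt8a. Sult1a1 came closest to the threshold (log2 1.04 ± 0.21 SE, 2.06-fold, adjusted p = 0.096). Gsta3 was at 1.52 ± 0.40 SE (adjusted p = 0.32), Aldh1a7 at 1.34 ± 0.45 SE (adjusted p = 0.56) and Ugt2b34 at 1.01 ± 0.55 SE (adjusted p = 0.87).

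In these 4 genes all 3 stage I ovaries lay above all 6 controls, which 3.85% of the 104 and 2.23% of all genes did. Below all controls lay Cyp4a31 alone (0.962%, against 1.45%). Stage I replicate 1 was the highest of its group in each, and without it the stage I difference was 0.91 for Gsta3, 0.71 for Aldh1a7, 0.70 for Sult1a1 and 0.48 for Ugt2b34, each uncalled. The spread among stage I ovaries was wider than among controls in all 4, with an SD of 1.09 against 0.35 for Aldh1a7 and of 0.60 against 0.08 for Sult1a1. Of the genes called in stage II, Ugt2b5 (0.14), Gsto1 (0.14), Cyp39a1 (0.23) and Cyp2e1 (-0.10) had small stage I differences, each with an adjusted p above 0.9.

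Stage II ovaries exceeded or fell short of stage I ovaries in 11 of the 104 enzymes (10.6%, against 12.5% of all genes), 9 higher (8.65%, against 6.54%) and 2 lower (1.92%, against 5.97%). The 9 and 2 became 9 and 5 after quantile normalization, and 9 and 4 with array medians centred. The 9 were Ugt2b34 (11.4-fold), Gsta3 (5.61-fold), Aldh1a7 (5.33-fold), Ugt2b5 (4.39-fold), Sult1a1 (3.08-fold), Cyp39a1 (2.29-fold), Cyp27a1 (2.04-fold), Gsto1 (1.99-fold) and Gstm6 (1.56-fold). Cyp2e1 fell 2.83-fold between the stages (log2 -1.50 ± 0.32 SE, adjusted p = 0.011), and Gstt1 1.34-fold (adjusted p = 0.046). At least 2-fold higher were 7 of the 104 (6.73%, against 1.68% of all genes), and Cyp2e1 alone was at least 2-fold lower (0.962%, against 0.201%). The stages did not overlap in 15 genes that were higher in stage II (14.4%, against 14.5% of all genes) and 12 that were lower (11.5%, against 17.1%).

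The adjusted p between the stages was 0.0013 for Ugt2b5, 0.0017 for Sult1a1 and 0.0043 for Cyp39a1, the 3 genes whose call held under every alternative tried. It was 0.0054 for Ugt2b34, 0.0057 for Gsta3, 0.0071 for Cyp27a1, 0.012 for Aldh1a7, 0.016 for Gsto1 and 0.021 for Gstm6. Without stage II replicate 3 the Ugt2b34 difference was 5.84-fold, and without stage I replicate 1 those of Gsta3 and Aldh1a7 were 8.56-fold and 8.26-fold. Single arrays ended the calls of Aldh1a7 (without stage I replicate 2 or 3, adjusted p = 0.053 in both), Gsto1 (without stage I replicate 3, 0.068), Gstm6 (without stage I replicate 2 or 3 or stage II replicate 3, up to 0.087), Cyp2e1 (without stage I replicate 3, 0.0503) and Gstt1 (9 of 12 arrays, up to 0.14). Without stage I replicate 3 the 11 calls became 7.

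Values rose without overlap from control through stage I to stage II in 4 of the 104, Aldh1a7, Gsta3, Sult1a1 and Ugt2b34 (3.85%, against 1.11% of all genes). The reverse order without overlap held for 0 of the 104 and 0.210% of all genes. The same 2 arrays stood highest in most of the genes that rose. Stage I replicate 1 was the highest stage I array, and stage II replicate 3 the highest stage II array, in all 9 genes that rose at least 2-fold in stage II, and in 13 and 10 of the 14 that rose. Over all 1074 genes called higher in stage II these shares were 68.6% and 68%. Stage II replicate 3 was the lowest of its group in 6 of the 7 genes that fell, and in 81.8% of all 1228 genes called lower.

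The genes that regulate these enzymes were described from a list of 11, of which 9 were measured. Against control, 2 rose and 3 fell in stage II. Over all genes 9.81% were called higher and 11.2% lower, the shares to set beside the counts of this list and those below. Nfe2l2, which encodes NRF2, the regulator of antioxidant and conjugating enzymes, rose 1.29-fold (log2 0.37 ± 0.09 SE, adjusted p = 0.01), from between 10.73 and 11.06 to 11.18, 11.31 and 11.43. With stage II replicate 3 left out, Nfe2l2 was not called (adjusted p = 0.064). Hnf4a, a nuclear receptor of liver and gut, rose 1.5-fold (log2 0.59 ± 0.11 SE, adjusted p = 0.0033). Ahr, the dioxin receptor that drives Cyp1 genes, fell 1.6-fold (log2 -0.68 ± 0.15 SE, adjusted p = 0.0078), from between 9.36 and 9.97 in controls to 8.96, 8.99 and 9.05 in stage II, with 8.91, 9.59 and 9.25 in stage I. Its target Tiparp and its partner Arnt fell by 0.40 (adjusted p = 0.032) and 0.20 (adjusted p = 0.03). Both calls ended without single arrays, at up to 0.18 and 0.16, and with array weights, at 0.0503 and 0.064. With the probe sets of each gene averaged, the Arnt change was -0.10 and was not called (adjusted p = 0.33). Of the 2 measured Cyp1 genes, Cyp1b1 fell, while Cyp1a1 was not called (log2 0.13), at a low mean of 4.47 in controls and 4.60 in stage II.

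Of 8 measured redox genes, most of them NRF2 targets, 3 rose in stage II and 0 fell. Gclc and Gclm, the catalytic and modifier subunits of the enzyme that limits glutathione synthesis, rose together. Gclc ran from 9.61 to 10.35 in controls, 10.65, 10.31 and 10.26 in stage I, and 10.93, 11.27 and 11.62 in stage II (2.44-fold, log2 1.29 ± 0.17 SE, adjusted p = 0.0003). Gclm ran from 8.80 to 9.25 in controls and was at 9.87, 9.72 and 10.20 in stage II (1.86-fold, log2 0.90 ± 0.13 SE, adjusted p = 0.00043). Stage II lay above all other ovaries in both genes. Cat, the catalase gene, rose by 0.29 (adjusted p = 0.035), a call that ended without single arrays (up to 0.15). Other targets used to read NRF2 activity were not called, with 0.05 for Nqo1 (adjusted p = 0.87), -0.02 for Txnrd1 (0.9) and 0.41 for Srxn1 (0.55).

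Of 4 measured electron donors of P450 enzymes, Cyb5a, cytochrome b5, rose 1.4-fold (log2 0.49 ± 0.09 SE, adjusted p = 0.0032). Of 18 other drug and aldehyde enzymes, 3 rose and 3 fell. Fmo5, a flavin monooxygenase that uses no P450, lay between 5.17 and 5.41 in controls, at 6.13, 5.58 and 5.71 in stage I, and at 7.77, 7.84 and 7.81 in stage II. The 3 groups did not overlap and stage II values hardly differed (SD 0.03). Fmo5 rose 5.63-fold against controls (log2 2.49 ± 0.10 SE, adjusted p = 6.6e-08) and 4.01-fold against stage I (adjusted p = 9.4e-06).

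Fmo2, a flavin monooxygenase known from lung, and Tpmt, the thiopurine methyltransferase, rose 1.4-fold each (log2 0.49 and 0.48, adjusted p = 0.0047 and 0.0061). Adh1, the alcohol dehydrogenase that also oxidises retinol, fell 2.24-fold (log2 -1.16 ± 0.24 SE, adjusted p = 0.0059). Its values were 11.72 to 12.79 in controls, with replicate 1 the lowest, and 10.96, 11.72 and 11.32 in stage II, so 1 stage II ovary met the control range. Adh5, which oxidises glutathione-bound formaldehyde, fell by 0.31 (adjusted p = 0.0028), and Aox3, an aldehyde oxidase, by 0.49 (adjusted p = 0.04, up to 0.23 without single arrays). Of 6 retinoid genes, Lrat, which stores retinol as ester, fell by 0.64 (adjusted p = 0.047, up to 0.27 without single arrays).

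Of the 6 measured exporters of conjugates, 4 rose and 1 fell, where 9.81% of all genes rose and 11.2% fell. Abcc3, which exports glucuronides and bile acids, ran from 7.26 to 7.58 in controls, 7.88, 7.41 and 7.37 in stage I, and 8.48, 8.37 and 9.20 in stage II (2.57-fold, log2 1.36 ± 0.17 SE, adjusted p = 0.00016). Stage II lay above every other ovary. Abcg2, which exports sulfated steroids and many drugs, rose 1.36-fold (log2 0.44 ± 0.08 SE, adjusted p = 0.0023). Abcb1a (0.27, adjusted p = 0.038) and Abcc5 (0.21, adjusted p = 0.013) rose, and Abcb1b fell by 0.43 (adjusted p = 0.033), and these 3 calls ended without single arrays, at up to 0.17, 0.069 and 0.11.

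In stage I 0 genes of these 6 lists were called. The stage I difference was 0.49 for Fmo5 (adjusted p = 0.13), 0.42 for Gclc (0.73), 0.24 for Abcc3 (0.93) and -0.43 for Ahr (0.62). Between the stages, 3 of the 8 redox genes rose (Gclm by 1.74-fold, adjusted p = 0.0056), as did 2 of the 6 exporters (Abcc3 by 2.19-fold, adjusted p = 0.0043, and Abcg2 by 1.36-fold, adjusted p = 0.011). Over all genes 6.54% were called higher between the stages. Of the redox genes, Gclc (1.82-fold, adjusted p = 0.017) was not called without stage I replicate 2 (0.063) or 3 (0.067) or stage II replicate 3 (0.075), and Cat (1.4-fold, adjusted p = 0.012) not without stage I replicate 2 (0.0504). Adh1 fell 2.29-fold between the stages (adjusted p = 0.018), a call that single arrays ended (up to 0.077). The median stage II change was 0.05 for the regulators, 0.29 for the redox genes, 0.28 for the electron donors, -0.16 for the other enzymes, -0.11 for the retinoid genes and 0.24 for the exporters, against -0.01 over all genes.

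**Figure D4:**
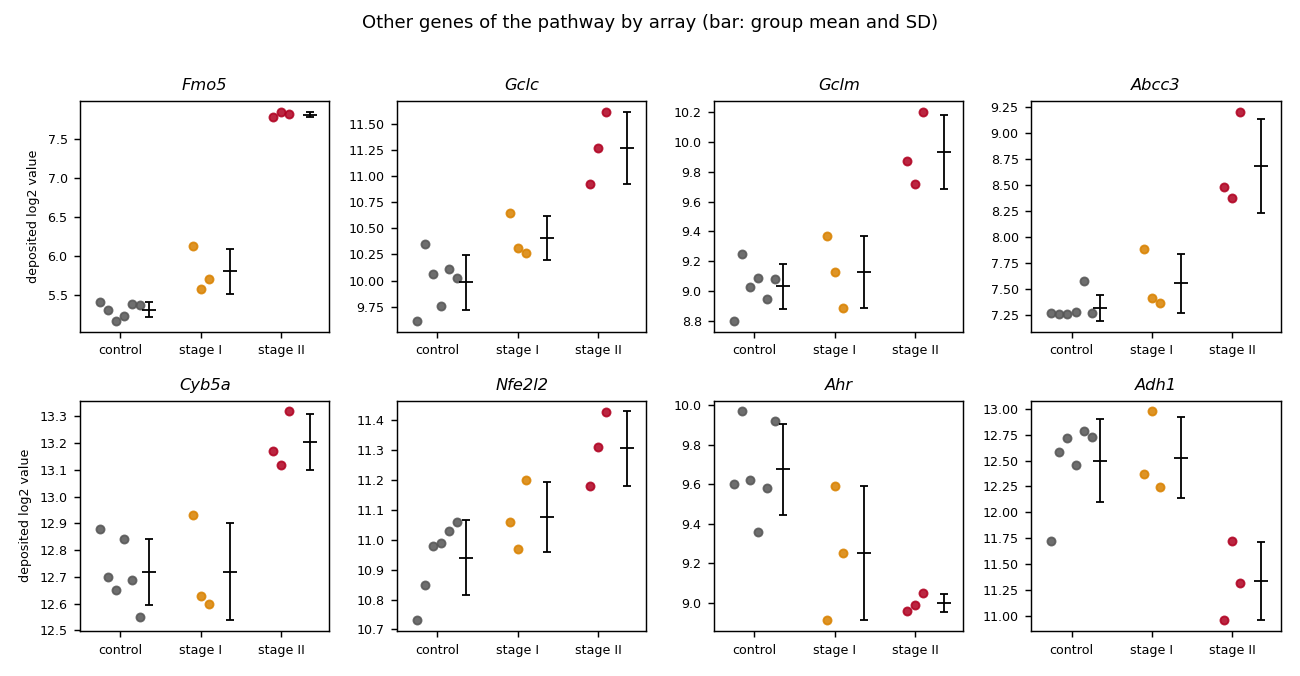
Deposited log2 values (y axis, a separate scale in each panel) of 8 genes that supply, regulate or complement the enzymes, in 6 control, 3 stage I and 3 stage II ovaries, with 1 point per array and the group mean ± SD as a bar. The 3 stage II values of Fmo5 lie between 7.77 and 7.84, above all other arrays, and those of Ahr lie between 8.96 and 9.05, below all controls.

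Some markers of other cell types also differed in stage II, where 9.81% of all genes were called higher and 11.2% lower. Of 5 measured hepatocyte markers, 2 rose: Apoa1, an apolipoprotein of liver and gut, by 9.26-fold (values of 10.75, 11.21 and 12.70, against 7.95 to 8.94 in controls), and Hnf4a. The mean of that list was 5.87 to 6.07 in controls, 5.97 to 6.17 in stage I and 6.58 to 7.12 in stage II. Apoa1 made most of that rise, from a mean of 8.35 in controls to 11.56 in stage II. Apoa2 went from 5.61 to 5.73 and Ambp from 4.75 to 4.79. Alb, albumin, the defining marker of hepatocytes, was at 4.79, 4.70 and 4.98 in stage II against 4.59 to 4.91 in controls (log2 0.04, adjusted p = 0.82). Of 6 macrophage markers, 4 rose, led by Cd14 (5.68-fold), and the calls of C1qa and C1qb ended without single arrays (up to 0.17 in both). The list mean was 8.84 to 9.04 in controls, 8.94 to 9.80 in stage I and 9.55 to 9.88 in stage II. Of 8 markers of oviduct and surface epithelium, 1 rose, the keratin gene Krt8 (12-fold, values of 12.06, 12.26 and 13.49 in stage II), and 1 fell, Lgals7, whose call also ended without single arrays (up to 0.089). Called or not, 4 of the 8 changes were above 0 and 4 below, with a median of -0.12. The mean of that list was 7.45 to 9.20, 8.29 to 9.14 and 8.11 to 9.26 in the 3 groups.

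Markers of the ovary's own cells fell in stage II: 5 of 6 granulosa markers, 5 of 5 theca and interstitial markers and 6 of 6 oocyte markers. Of all genes 11.2% were called lower there. In stage I 0 of each were called. Some of these stage II calls ended without single arrays, and some under another setting described in the closing sections. The granulosa list mean was 10.01 to 10.94 in stage II, below every control (up to 11.57), by only 0.05 at the closest. The theca list mean was 9.99 to 10.48 in controls and 8.67 to 9.68 in stage II, and the oocyte list mean 8.64 to 9.10 and 7.55 to 8.32. A list mean does not describe each marker: Cyp17a1 was at 6.06 in stage II replicate 3 against 10.79 to 12.18 in controls. Presence of each marker on each array was not tested, as no detection calls were used. Of the 5 luteal markers only Pgr was called, the gene used above as the check of the allele. The luteal changes were above 0 in 1 and below 0 in 4. Of the 6 endothelial markers 0 were called. In which cells the enzymes were made, and the part of the changed cell mix in their differences, was not tested.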

How the data were processed

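Per the labels' protocols, total RNA of 12 ovaries was isolated with Trizol, cleaned up on columns and carried a biotin label, and each sample was read on a 1-colour array. The log2 values deposited by the authors were used as given. How they were summarised and normalized is not stated in those labels, and the log2 scale was read from their range (2.69 to 14.44). The number of arrays limits precision, and no detection calls were used. The table holds 16376 probe sets. The platform annotation gives 14674 of them 1 symbol, 427 several and 1275 none, and 14632 matched RefSeq genes of GRCm38.p6, with 0 symbols changed. Genes on other probe sets were not analysed here.

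Limma 3.58.1 (lmFit and eBayes, R 4.3.3) estimated a mean per group over all 12 arrays, with 9 residual and 3.13 prior degrees of freedom, and Benjamini-Hochberg adjustment ran over 10949 genes in each of 3 comparisons. The scripts were tested on simulated data. The enzymes and the 15 lists of pathway and marker genes were chosen with earlier results of these data known. Both stages were compared with the same controls. P-values rest on the spread between these samples, with a single estimate per gene shared by all groups. That spread was unequal in some genes, with an SD of 0.14 in controls and 1.67 in stage II for Ugt2b34.

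The text gives every enzyme called in any comparison, the 2 with the highest means in each family, the largest change in a family without calls, and up to 4 called genes of each pathway list with Pgr as the check. Other genes were named after their values were seen: subfamily neighbours, Cyp2s1, Cyp26a1, Nqo1, Txnrd1, Srxn1, markers and all genes of the closing observations. Replicate numbers gave no clear sign of pairing: correlations of same-numbered deviations ran from -0.132 to 0.204, with 3 of 9 over 0.1. Those of differently numbered samples ran from -0.382 to 0.321. With so few arrays per group, these correlations do not settle whether samples were paired. Alternatives were quantile normalization, centred array medians, no genes of the dimmest 25 percent, averaged probe sets per gene, the compared groups alone, a trended robust prior, array weights, a replicate block, each array left out, control replicates 1 and 4 left out and, added after the data were seen, the 3 arrays with the highest Ovgp1 left out.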

Additional observations from a re-analysis of the deposited data

Results flagged for a closer look

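Each of the 104 enzymes was searched for a single control array that stood apart from the other 5 by Dixon's test, with a 95% critical value of 0.625, and 5 genes met it. Chance alone gives about 1 such group in 20. Control replicate 5 was apart in 3 of them: Ces1f, a carboxylesterase, was at 5.26 against 4.18 in the next control, Cyp26a1 at 5.51 against 4.79, and Sult1b1 lower, at 2.96 against 3.11. Control replicate 4 was at 6.81 in Cyp4f18 against 5.31 in the next control. Control replicate 6 was at 4.01 in Sult2b1 against 4.10.

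Ces1f and Cyp26a1 were also high in stage I replicate 2 (5.27 and 5.88) and in stage II replicate 2 (5.11 and 5.97), and Cyp2b10, the phenobarbital-responsive P450, was at 3.95 in control replicate 5, 4.49 in stage I replicate 2 and 4.53 in stage II replicate 2. The same arrays had the highest values of the oviduct gene Ovgp1, at 12.70, 11.77 and 11.58 against 5.94 to 9.76 elsewhere, and of Foxj1, a gene of ciliated cells, at 5.78, 6.00 and 5.71. The part of oviduct tissue in these values was not tested.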

How the results depend on the processing

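Over 22 settings, 90 differences of named enzymes gave 1965 values, of which 63 lost a call and 41 gained one. A change of sign with a call in either fit occurred in 0, and sign changes of uncalled differences were not counted. In stage I, 0 of the 104 enzymes were called under any setting. In stage II against control 13 of the 21 calls held throughout (Aldh1a7, Cyp1b1, Cyp27a1, Cyp2d22, Cyp2e1, Cyp39a1, Gsta3, Gsta4, Gstm6, Gsto1, Sult1a1, Ugt2b34, Ugt2b5), the count was 32 with array weights and 19 to 24 without single arrays. In stage II against stage I the 11 calls became 4 in the compared groups alone, 20 with array weights, 7 with the replicate block, 17 without control replicates 1 and 4, 6 when the 3 arrays highest in Ovgp1 were left out, and 7 to 16 without single arrays. Over all genes, the 21 calls of stage I became 6 with the replicate block, 13 without control replicates 1 and 4, 11 without the Ovgp1 arrays and 15 to 28 without single arrays. The 2302 of stage II became 1090 with the replicate block and 1145 (without stage II replicate 3) to 2432 without single arrays. The 1370 between the stages became 393 in the compared groups alone, 2308 with array weights, 602 with the replicate block, 544 without the Ovgp1 arrays, and 605 (without stage I replicate 3) to 1610 without single arrays, with 632 without stage I replicate 2 and 633 without stage II replicate 3. The compared groups alone and settings that leave out arrays have fewer samples, and the cause of the other shifts was not tested. With the replicate block, where 5 of 18 comparisons favoured the sample's own number, 17 enzymes were called in stage II against control, without Aldh1a1, Cyp2c70, Cyp4b1, Cyp4v3, Gstm5, Gstt1 and Gstz1 (adjusted p from 0.061 to 0.2). Of the pathway genes, the block also ended the stage II calls of Hnf4a and Adh5 (0.063 in both), Cat, Tiparp, Arnt, Abcb1a, Abcb1b, Abcc5 and Lrat (0.052 to 0.26), and the calls between the stages of Gclm and Abcg2 (0.056 in both) and Gclc (0.067). Of the macrophage markers it ended those of Csf1r (0.051) and C1qb (0.065). Against control it also ended the calls of the granulosa markers Inhba, Inhbb, Amhr2 and Inha (0.061 to 0.14). The same held for the theca markers Cyp17a1, Pdgfra and Nr2f2 (0.077 to 0.16) and the oocyte markers Dppa3 and Oosp1 (0.058 and 0.061). Without the Ovgp1 arrays Gstz1 (0.0504), Cyp4v3 (0.12), Gstm5 (0.081) and Gstt1 (0.058) were not called. Values without background limits leave the folds of Ugt2b34 and Ugt2b5 uncertain.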

Other observations

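A few enzymes differed between ovaries within a group rather than between groups. Aldh1l1, a folate enzyme of the Aldh family, Cyp4f14, a fatty acid hydroxylase, and Ces2e were highest among controls in replicates 1 and 4. Their values there were 8.64 and 9.24 for Aldh1l1, 7.18 and 7.70 for Cyp4f14, and 4.94 and 5.41 for Ces2e. In these 2 controls Star, the cholesterol carrier of steroid-making cells, was at 12.80 and 13.22, and Akr1c18, the progesterone-degrading enzyme of corpora lutea, at 13.26 and 13.59, also the highest among controls. The genes did not keep together in the other groups. In stage II replicate 1 Star was at 12.84 and Aldh1l1 at 9.14, the highest of stage II, but Cyp4f14 was at 6.56. In stage I replicate 3 Akr1c18 was at 13.25, while Aldh1l1 was at 7.92, the lowest of stage I. In stage II against control the log2 change of Aldh1l1 was 0.58 (adjusted p = 0.27) and that of Cyp4f14 -0.40 (adjusted p = 0.34).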
